A study of Mus musculus with 12 samples.

Results

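The microRNA (miRNA) hairpins mmu-mir-7a-1, mmu-mir-7a-2, mmu-mir-149 and mmu-mir-760 were 4 of the 1050 miRBase hairpins that held at least 1 read in the small RNA libraries, and each of them had reads in all 12 libraries. They were selected on measured values, because the deposited reads of mir-7a-2, mir-149 and mir-760 moved in opposite directions in TM4 cells under the 2 treatments described next. mir-7a-1 was taken along with mir-7a-2, since both encode the same mature miRNA. Values of the TM4 comparisons are therefore given as a description with no test, and the diet comparison in sperm, which had no part in the choice, was tested.

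The sperm came from the epididymis of male C57BL6/J mice fed for 7 weeks, from 4 weeks of age by the labels (a legend of the study gives a later start), either the control diet (CD, 16% of the energy from fat, AIN-93G) or the high-fat diet (HFD, D12492, 69% from fat in the labels, where the methods give a lower share). There were 3 CD and 3 HFD libraries, and each pooled the sperm of 3 mice. TM4 is a mouse cell line labelled as Sertoli cells, the somatic cells that nurse germ cells in the testis, and 2 libraries each came from control cells (Ctrl), cells given 10 µM Compound C (CC) for 12 hours and cells overexpressing Angiogenin (Ang OE). CC inhibits AMPK, the kinase that senses low cellular energy, and Ang is a secreted ribonuclease that cuts tRNAs. The full-length Ang coding sequence was expressed from a Gateway plasmid, the methods describe Ctrl as non-treated cells, and no vector control is named. Nothing in the labels says that libraries of 1 TM4 group came from separate cultures, so p-values in TM4 cells measure only the spread between these libraries, which may be technical.

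A miRNA hairpin is cut into short mature strands, the 5p and the 3p arm, and a mature strand recognises its target mRNAs mainly through its seed. mir-7 is an ancient family that is abundant in neurons and endocrine cells such as those of the pancreatic islets and the pituitary, and its members differ in locus but share the seed of the 5p strand. mir-149 is transcribed with the glypican gene Gpc1, and both mir-149 and mir-760 have been studied mostly in tumour cells.

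The mature sequences are shown first because both mir-7a loci encode the same 5p strand, whose reads cannot be assigned to either, and because the base composition of the strands returns beside the TM4 values. They are given 5′ to 3′ from RefSeq on GRCm38.p6, with the seed, bases 2 to 8, in capitals.
miR-7a-5p: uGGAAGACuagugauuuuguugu
miR-7b-5p: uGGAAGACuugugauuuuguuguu
miR-7a-1-3p: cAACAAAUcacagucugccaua
miR-7a-2-3p: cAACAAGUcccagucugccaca
miR-149-5p: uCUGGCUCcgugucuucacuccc
miR-149-3p: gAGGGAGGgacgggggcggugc
miR-760-5p: cCCCUCAGgccaccagagcccgg
miR-760-3p: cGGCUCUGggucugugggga
miR-7a-5p is identical at both mir-7a loci, and miR-7b-5p differs from it by A10U, counted from the 5′ end of miR-7a-5p. The 3p arms of mir-7a-1 and mir-7a-2 differ at 3 of 22 positions, by A7G, A10C and U21C, counted from the 5′ end of miR-7a-1-3p. Among the 1679 mature mouse sequences of the table, the seed of miR-7a-5p was found only in miR-7a-5p and miR-7b-5p, and the seed of miR-149-5p in no other sequence. The seed of miR-149-3p was shared by miR-1943-5p, miR-6967-5p and miR-7016-5p, that of miR-760-3p by miR-7239-3p, and that of miR-7a-2-3p by miR-7b-3p. The strands differ in base composition. miR-7a-5p has a GC content of 34.8%, at percentile 4.41 of the table, whereas miR-149-3p with 81.8% is at percentile 98.9 and miR-760-5p with 78.3% at percentile 98.7. miR-7b-5p has the lowest GC content of the strands shown, 33.3% at percentile 3.34. The other strands lie between these extremes, such as miR-7a-2-3p with 54.5% at percentile 55.2 and miR-149-5p with 60.9% at percentile 75.5.

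The loci are on 4 chromosomes. In GRCm38.p6, the assembly that corresponds to the mm10 build of the submitters' notes, mir-7a-1 is at chr13:58392779-58392886 and mir-7a-2 at chr7:78888277-78888373. mir-149 is at chr1:92850378-92850443 and mir-760 at chr3:122293585-122293703. By symbol, the GENCODE vM39 annotation places mir-7a-1 in an intron of Hnrnpk, which encodes an RNA-binding protein, and mir-149 in an intron of Gpc1, both on the strand of the host gene. It places mir-7a-2 in an exon of the long non-coding RNA gene Gm57212, and mir-760 in an exon of the long non-coding RNA gene Gm17494, opposite to introns of Bcar3 and Gm40190.

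Levels are given as CPM, the counts scaled to the total of all reads assigned to miRBase hairpins. These were 11412945 to 14822686 reads per sperm library and 27651384 to 35704399 per TM4 library, of 31710445 to 64038150 clean reads. The labelled cell types were checked against miRNA markers. mir-202, the marker used for gonadal somatic cells, lay between 0 and 0.178 CPM in the TM4 libraries, so the Sertoli label was not borne out by that marker, and between 4.86 and 59.8 CPM in sperm. Of 10 germ cell miRNAs, mir-880 and mir-463 were at 0 in every TM4 library, while the 10 summed to 2955 to 8438 CPM in sperm and, through the other members, still to 959 to 2066 CPM in TM4 cells. Sperm libraries also held epithelial miRNAs of the mir-200 family (8946 to 14327 CPM in all 5) and red blood cell miRNAs (13696 to 26658 CPM in all 3). The RNA of Ang itself is not measured in small RNA libraries, so the overexpression could not be checked here. In such bulk samples, fewer cells of a type and less RNA per cell cannot be told apart.

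mir-7a-1, the more abundant of both mir-7a hairpins, stood at 9.73, 11.5 and 12.6 CPM in the CD sperm libraries and at 9.68, 10.1 and 15.3 CPM in the HFD sperm libraries. In TM4 cells it stood at 78.6 and 78.9 CPM in Ctrl, at 53.2 and 59.7 CPM in CC and at 119 and 109 CPM in Ang OE. The diet groups overlapped, every TM4 library lay above every sperm library, and the TM4 groups did not overlap, with CC lowest and Ang OE highest. mir-7a-2, which yields the same 5p strand from another chromosome, stood at 2.15, 3.02 and 3.79 CPM in CD and at 2.65, 2.87 and 3.61 CPM in HFD sperm. Its TM4 values were 54.4 and 55.9 CPM in Ctrl, 32.6 and 36.6 CPM in CC and 102 and 94.7 CPM in Ang OE. The order was the same as for mir-7a-1, again with overlap between the diets alone.

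mir-149, the most abundant of the 4 by group mean except in Ang OE, stood at 101, 113 and 80.4 CPM in CD and at 135, 92.2 and 86.0 CPM in HFD sperm. Its TM4 values were 200.5 and 191 CPM in Ctrl, 326 and 328 CPM in CC and 82.8 and 103 CPM in Ang OE. Here Ang OE cells were the lowest TM4 group and overlapped with both sperm groups, and CC cells were the highest, without overlap between the TM4 groups. mir-760, the least abundant, held 9, 21 and 5 reads in CD and 6, 3 and 9 reads in HFD sperm. It held 113 and 178 reads in Ctrl, 262 and 254 reads in CC and 51 and 70 reads in Ang OE cells. In CPM the CC group was highest, followed by Ctrl, and Ang OE, CD and HFD overlapped as neighbours at the low end. The shallowest value, 3 reads in the library HFD 2, corresponds to 0.242 CPM with a Wilson interval of 0.0824 to 0.712 at the 95% level. Such intervals cover counting error only.

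**Figure D1:**
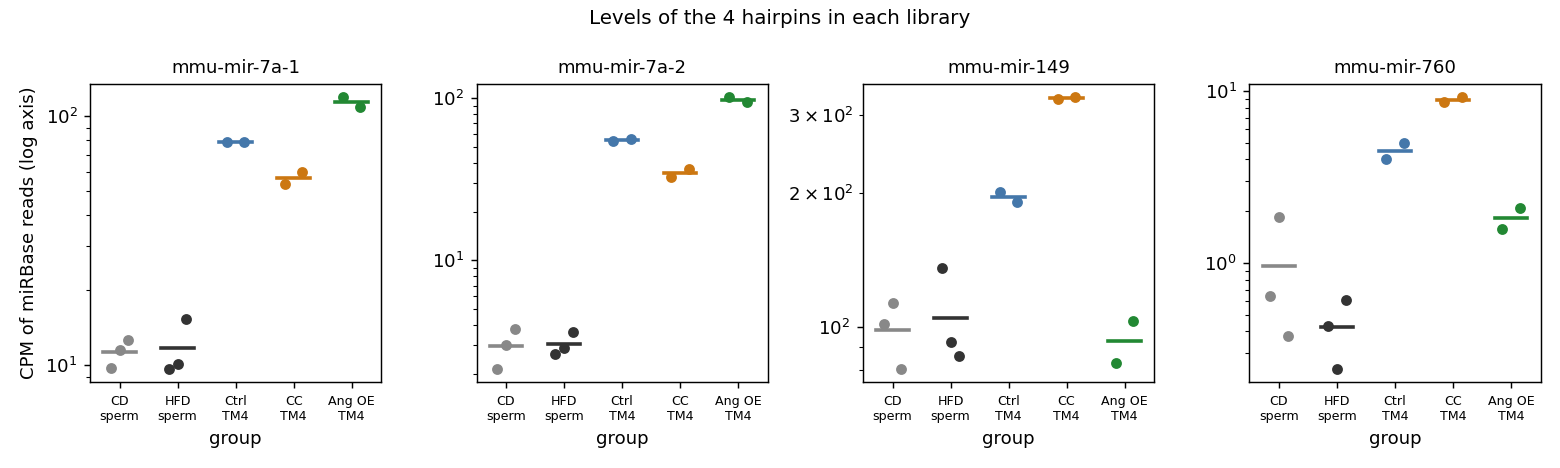
CPM of miRBase reads (log axis) for each hairpin, with 1 panel per hairpin, 1 point per library and a line at the group mean (n = 3 for CD and HFD sperm, n = 2 for Ctrl, CC and Ang OE TM4 cells). Both mir-7a hairpins run from CC up to Ang OE among the TM4 groups, mir-149 and mir-760 run the other way, and the diet groups overlap in all 4 panels.

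The order of the group means of mir-7a-1 ran from 11.3 ± 1.44 CPM (SD, n = 3) in CD and 11.7 ± 3.11 (SD, n = 3) in HFD to 56.4 ± 4.54 (SD, n = 2) in CC, 78.8 ± 0.228 (SD, n = 2) in Ctrl and 114 ± 7.11 (SD, n = 2) in Ang OE. For mir-7a-2 the means were 2.99 ± 0.823, 3.04 ± 0.502, 34.6 ± 2.80, 55.2 ± 1.04 and 98.2 ± 4.88 CPM in the same order and with the same n. mir-149 started with Ang OE at 92.8 ± 14.1 CPM (SD, n = 2), followed by CD at 98.2 ± 16.5 and HFD at 105 ± 26.9 (SD, n = 3), groups that did not differ beyond their spread as neighbours. Ctrl at 196 ± 6.61 and CC at 327 ± 2.01 CPM (SD, n = 2) stood above them. mir-760 went from HFD at 0.427 ± 0.182 and CD at 0.953 ± 0.780 (SD, n = 3) over Ang OE at 1.83 ± 0.353 to Ctrl at 4.50 ± 0.688 and CC at 8.89 ± 0.413 CPM (SD, n = 2). Among the TM4 groups, the highest mean was 2.02 times the lowest for mir-7a-1, 2.84 times for mir-7a-2, 3.52 times for mir-149 and 4.87 times for mir-760.

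Control TM4 cells differed from CD sperm most in mir-7a-2, which was 18.5 times as high in the cells. The reads of both mir-7a hairpins include those that matched both loci, so neither of their ratios describes a single locus. The ratio of the means was 6.98 for mir-7a-1, 4.72 for mir-760 and 1.99 for mir-149. These ratios set a cell line beside a tissue, so cell type and sample preparation cannot be told apart in them, and that of mir-760 rests in part on the library CD 2, without which its log2 ratio was 3.14 in place of 2.24. By mean level, mir-149 was at rank 133 of 1001 hairpins with reads in sperm and 116 of 880 in TM4 cells. The ranks were 229 and 146 for mir-7a-1, 333 and 154 for mir-7a-2, and 450 and 273 for mir-760.

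How the mir-7a reads fall on the loci could be followed from the fractions in the estimated counts. In 12 of 12 libraries the reads of mir-7a-1 and mir-7a-2 added up to a whole number (tolerance 0.01), although in 8 libraries each hairpin on its own carried a fraction. This is the pattern of reads that matched both hairpins and were divided equally between them. Such shared reads cancel in the difference of the loci, which leaves the reads that matched mir-7a-1 alone minus those that matched mir-7a-2 alone, and this difference is a lower bound for the former.

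In sperm, mir-7a-2 had 0.261 ± 0.0405 reads per read of mir-7a-1 in CD (SD, n = 3) and 0.264 ± 0.0248 in HFD (SD, n = 3), with overlapping libraries. The difference of both loci made up 53.7% to 63.9% of their summed reads in the 6 libraries, so at least this share of the sperm reads of the pair matched mir-7a-1 alone. The ratio gave no difference past the threshold between the diets (exact 2-sided permutation test, p = 1, adjusted p = 1 over 2 such tests), where 3 against 3 libraries cannot give a p below 0.1.

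In TM4 cells the ratio was higher, at 0.693 and 0.709 in Ctrl, 0.613 and 0.613 in CC and 0.852 and 0.867 in Ang OE. The difference made up 18.2% and 17.1% of the summed reads in Ctrl, 24.0% and 24.0% in CC and 7.99% and 7.11% in Ang OE. In CPM it amounted to 24.1 and 23.0 in Ctrl, 20.6 and 23.1 in CC and 17.7 and 14.5 in Ang OE. The reads of mir-7a-1 in excess of mir-7a-2 were thus lowest in Ang OE on this scale, whereas the sum of both loci was highest there, with 212 ± 12.0 CPM against 134 ± 1.27 in Ctrl and 91.0 ± 7.34 in CC (SD, n = 2). The excess in Ang OE was also below both Ctrl libraries as RPM of the clean reads outside rRNA (11.5 and 8.97 against 13.6 and 13.8) and after TMM scaling (19.6 and 16.8 against 22.3 and 21.9 CPM). After TMM scaling it overlapped with CC, at 19.5 and 21.6 CPM. The deposited counts are per hairpin, so it is not known whether these reads come from the 3p arm, from the loop or from longer pieces of the hairpin.

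**Figure D2:**
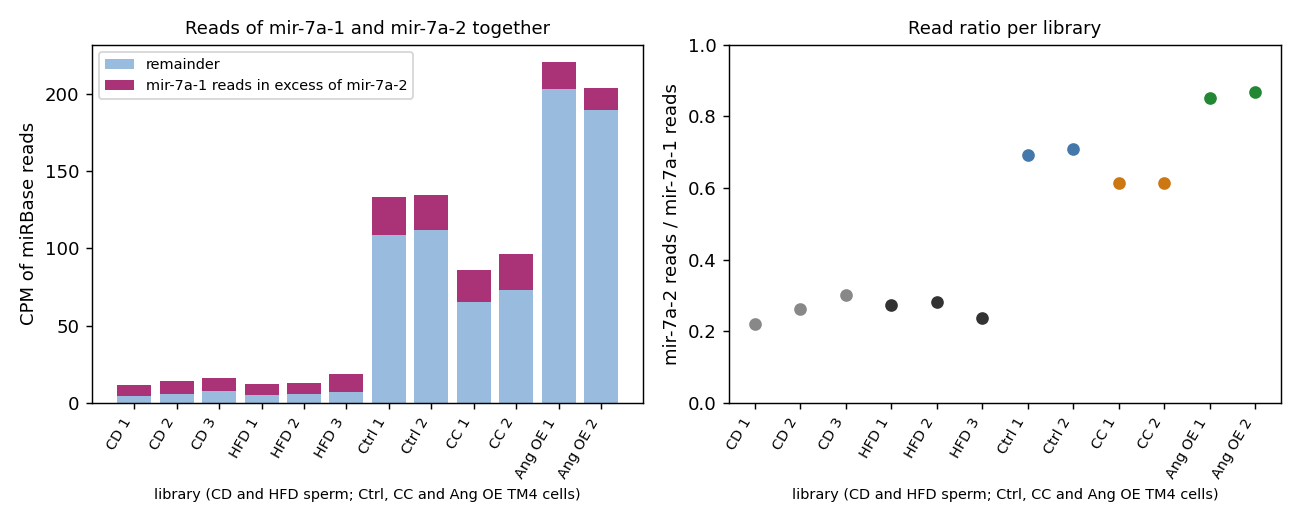
Left, CPM of miRBase reads of mir-7a-1 and mir-7a-2 together per library, with the mir-7a-1 reads in excess of mir-7a-2 as the upper segment and the remainder below. Right, mir-7a-2 reads divided by mir-7a-1 reads per library, coloured by group. The sum is highest in Ang OE, where the upper segment is smaller than in Ctrl, and the ratio is at most 0.301 in the sperm libraries and at least 0.613 in the TM4 libraries.

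The third mouse gene of the family, mir-7b, was nearly silent. It had 0 reads in every sperm library, where a floor of 3 counts corresponds to 0.202 to 0.263 CPM and the upper Wilson limit at the 95% level to 0.259 to 0.337 CPM, depending on the library, and 0 to 2 reads in each TM4 library. Nearly all reads of hairpins with the mir-7 seed were thus those of mir-7a.

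In sperm, the HFD was not accompanied by a detectable change of these miRNAs. Of the 4 hairpins, 3 reached 10 reads in at least 3 sperm libraries and entered the edgeR quasi-likelihood test across all hairpins that passed this filter. The log2 fold change of HFD against CD was -0.06 for mir-7a-1 (95% interval -0.62 to 0.49), -0.06 for mir-7a-2 (-0.70 to 0.59) and -0.02 for mir-149 (-0.52 to 0.49), each with an adjusted p of 0.989 in edgeR. Their libraries overlapped between the diets. When libraries were scaled by all miRBase reads or by all clean reads outside rRNA, the 3 values lay above 0, at 0.05 to 0.09 and at 0.14 to 0.16, and under the latter scaling the median of all hairpins moved to 0.19.

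Of all hairpins tested in sperm, 0 were called at an adjusted p under 0.05 by edgeR, a background of 0%, and 31 had an unadjusted p under 0.05. DESeq2 called 8, of which 1 was higher and 7 were lower in HFD, and found 29 at an unadjusted p under 0.05. mir-760 did not pass the filter on low reads. Its mean of 0.427 ± 0.182 CPM in HFD against 0.953 ± 0.780 in CD (SD, n = 3) gave p = 0.4 in the exact 2-sided permutation test, adjusted to 0.8 over 2 tests. Without the filter, edgeR gave it a log2 fold change of -1.14 (SE 0.55) with an adjusted p of 0.929, and the library CD 2 alone held 21 of the CD reads. The 3 white blood cell miRNAs summed to 780.1 to 1422 CPM in HFD and 580.3 to 676 in CD, and 1 of them, mir-142a, was above every CD library in each HFD library, although none of the 3 was called by edgeR. Of the other markers, the germ cell miRNA mir-449c was below every CD library in each HFD library, 1 of 10 on its list, and was not called either. The share of all hairpins without overlap between the diets was not counted, so neither marker sets its list apart. The part of the markers in the values of the sperm comparison was not tested.

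CC treatment, which asks what AMPK inhibition does to small RNAs, went with lower mir-7a and higher mir-149 and mir-760. All 4 hairpins passed the filter in TM4 cells. On the TMM scale, the log2 fold change of CC against Ctrl was -0.48 (SE 0.12) for mir-7a-1, -0.67 (SE 0.13) for mir-7a-2, 0.75 (SE 0.13) for mir-149 and 0.98 (SE 0.18) for mir-760. The median of the 533 hairpins tested was -0.03. Among these changes mir-7a-2 was the 35th from the lowest and mir-7a-1 the 58th, while mir-760 was the 20th from the highest and mir-149 the 29th. Over all hairpins tested, 12 were called higher (2.25%) and 10 lower (1.88%) at an adjusted p under 0.05 in edgeR. When CC replicate 1 or CC replicate 2 was left out, 0 were called, in fits where CC is a lone library assumed to vary like the other groups. The log2 fold changes were then -0.43 and -0.55 for mir-7a-1, -0.62 and -0.74 for mir-7a-2, 0.72 and 0.75 for mir-149 and 0.99 and 0.94 for mir-760, so the calls were lost with fold changes of about the same size. The 4 hairpins were chosen on this contrast, so these shares are a background and no test of them.

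Ang OE, which asks what more Angiogenin does to small RNAs, went with the opposite directions, measured against the same 2 Ctrl libraries. The log2 fold change of Ang OE against Ctrl was 0.81 (SE 0.12) for mir-7a-1, 1.105 (SE 0.12) for mir-7a-2, -0.80 (SE 0.13) for mir-149 and -1.03 (SE 0.21) for mir-760. The median of the hairpins tested was 0.06. mir-7a-2 was the 54th from the highest and mir-7a-1 the 91st, and mir-760 was the 37th and mir-149 the 57th from the lowest of 533. Many more hairpins were called than under CC, 204 in all, of which those called higher made up 24.2% and the 75 called lower 14.1% of the hairpins tested. When libraries were scaled by clean reads outside rRNA, the split was 98 higher and 103 lower, and the median moved to -0.08.

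**Figure D3:**
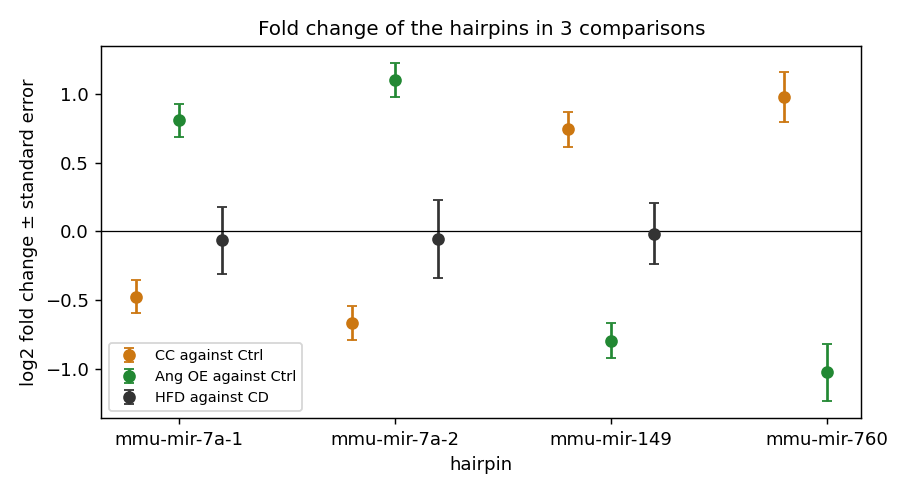
Log2 fold change with its standard error from edgeR for CC against Ctrl and Ang OE against Ctrl TM4 cells, which share the Ctrl libraries, and for HFD against CD sperm, where mir-760 was not tested. The TM4 values of each hairpin lie on opposite sides of 0, as the choice of the hairpins fixed, and the sperm values lie between -0.06 and -0.02.

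The choice of the 4 hairpins fixed their opposite directions, so the following count describes that choice and tests nothing. Calls in opposite directions in both treatments were held by 7 of the 533 hairpins, these 4 included. In the fits with a lone CC library, which call 0 hairpins in CC, none can meet this condition. The other 3, given because they meet the same condition, are mir-450b with -0.64 in CC and 0.86 in Ang OE, mir-132 with 0.65 and -0.73, and mir-6539 with 0.69 and -0.53. mir-7a-1 and mir-7a-2 share reads and are not independent observations.

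GC content moved with the fold changes of Ang OE. The mean GC content of the mature strands was 37.8% for mir-7a-1, 44.7% for mir-7a-2, 71.3% for mir-149 and 74.1% for mir-760, and 427 of the 533 hairpins tested (80.1%) had such a value. In Ang OE, the median log2 fold change was 0.39 in the tertile of lowest GC content, which runs from 23.8% to 46.7% and holds both mir-7a hairpins. It was -0.12 in the middle tertile and -0.35 in the highest, which holds mir-149 and mir-760. Under CC the medians were 0.02, -0.02 and 0.10.

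With an offset for GC content in the fit, an alternative added after seeing the data, the Ang OE values became 0.39 for mir-7a-1, 0.84 for mir-7a-2, -0.39 for mir-149 and -0.61 for mir-760, in the same directions. The CC values were -0.46, -0.69, 0.59 and 0.84 with that offset. The number of hairpins called in Ang OE was 133 with the offset, which covers the 427 hairpins with a GC value, and 204 without it. The part of GC content in the changes was not tested beyond this.

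**Figure D4:**
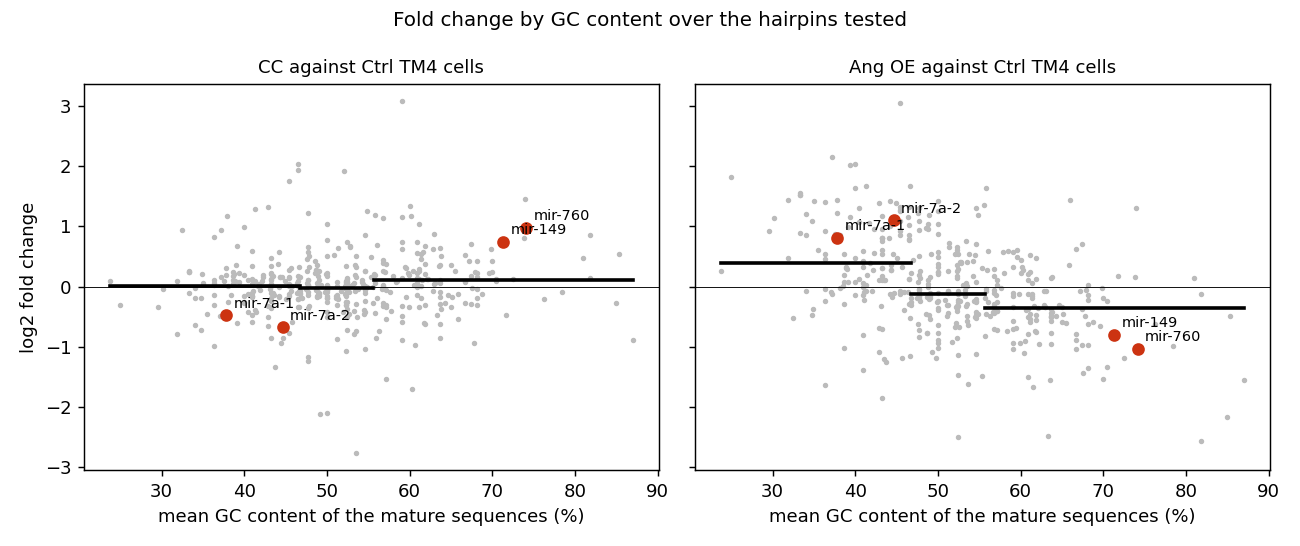
Log2 fold change of each tested hairpin with a GC value against the mean GC content of its mature strands, for CC (left) and Ang OE (right) against Ctrl TM4 cells. Grey points are single hairpins, black lines the medians of the GC tertiles, and red points the 4 hairpins. In Ang OE the medians fall from 0.39 over -0.12 to -0.35, and the red points lie on the same side of 0 as the line of their tertile, whereas in CC the medians stay between -0.02 and 0.10.

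Summed levels of markers of other cells differed between the TM4 groups as well, given here as values with no test. The smooth muscle miRNAs mir-143 and mir-145a summed to 94556 to 129039 CPM in Ang OE, 51422 to 73465 in CC and 49714 to 55567 in Ctrl, and 1 of the 2, mir-143, was higher in each Ang OE library than in either Ctrl library, as mir-145a was in CC. The 10 germ cell miRNAs summed to 1964 to 2066 CPM in Ang OE, 959 to 1050 in CC and 1046 to 1090 in Ctrl, with 4 of 10 above both Ctrl libraries in Ang OE, 2 of 10 (mir-34b and mir-871) above and 1 (mir-449c) below them in CC, and mir-880 and mir-463 at 0. The 3 red blood cell miRNAs summed to 885 to 894 CPM in Ang OE, 942 to 982 in CC and 1374 to 1433 in Ctrl, and 1 of 3, mir-486a, was below both Ctrl libraries in each treatment. The 3 white blood cell miRNAs were near 0, at 2.23 to 2.82 CPM in Ang OE, 3.00 to 3.09 in CC and 3.81 to 4.30 in Ctrl, with 3 of 3 below both Ctrl libraries in Ang OE and 2 of 3 in CC. The 5 epithelial miRNAs summed to 1.28 to 2.38 CPM over all TM4 libraries, and 2 of 5 were above both Ctrl libraries in Ang OE. Over all hairpins tested, edgeR called 24.2% higher and 14.1% lower in Ang OE, and 2.25% higher and 1.88% lower in CC. The share of all hairpins without overlap was not counted, so these counts set no list of markers apart. The part of the markers in the values of mir-7a, mir-149 and mir-760 was not tested.

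Among the hairpins that share a seed with mir-149 or mir-760, mir-1943 was the most abundant and held 786 to 1371 reads in TM4 libraries and 21 to 53 in sperm. In TM4 cells, its log2 fold change was -0.38 in CC (adjusted p = 0.141, edgeR) and -0.42 in Ang OE (adjusted p = 0.0187, edgeR), so it fell in Ang OE and did not pass the test in CC. Of all hairpins tested, 14.1% were called lower in Ang OE. With a mean GC content of 63.8%, mir-1943 is in the highest tertile, whose median in Ang OE was -0.35. The identical counts of mir-6967-1 and mir-6967-2, 5 to 18 reads in TM4 libraries, passed the test in neither treatment, with log2 fold changes of 0.27 in CC (adjusted p = 0.859, edgeR) and -0.77 in Ang OE (adjusted p = 0.344, edgeR). mir-7016 had 1 to 4 reads per TM4 library and was not tested, and mir-7239 was listed in no library.

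The hairpins whose levels ran most closely with each of the 4 were sought among 306 hairpins with a mean of at least 100 reads in TM4 cells, by Pearson's r of log2(CPM + 1) over the 6 TM4 libraries. These libraries form 3 groups of 2 and share the Ctrl cells and the depth of each library, so r mostly describes the order of the groups and carries no test. For mir-7a-1 they were mir-7a-2 (r = 0.998), mir-450b (0.991) and mir-466n (0.987), and for mir-7a-2 they were mir-7a-1 (0.998), mir-450b (0.990) and mir-450a-1 (0.987). For mir-149 they were mir-6539 (0.998), mir-8112 (0.990) and mir-760 (0.989), and for mir-760 they were mir-8112 (0.996), mir-6539 (0.993) and mir-149 (0.989). Selection on these libraries fixed in advance that mir-149 and mir-760 move together. Reads divided between the mir-7a loci likewise build in a high r for that pair.

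High values of r were common, since 31 to 38 of the 306 candidates reached 0.9 with each hairpin. Over the 6 sperm libraries the pair of mir-7a loci, which share reads, had r = 0.834. The other partners of mir-7a-1 had 0.370 (mir-450b) and 0.432 (mir-466n) there, and those of mir-7a-2 had 0.02 (mir-450b) and 0.04 (mir-450a-1). The partners of mir-149 had 0.169 (mir-6539), 0.257 (mir-8112) and 0.318 (mir-760). For mir-760, r was -0.02 with mir-8112 and 0.919 with mir-6539, a pair with means of at most 1.75 CPM in sperm. mir-450b went from 341 CPM in Ctrl to 218 in CC and 512 in Ang OE, and mir-6539 from 304 to 487 and 174 CPM. In sperm both were below 5 CPM in the mean of either diet.

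Other miRNAs of neurons and endocrine cells, a list of 12 hairpins to which mir-7b also belongs, were set beside mir-7a. The 3 loci of the neural miRNA mir-9 encode the same mature miRNA and are counted once here, as mir-9-1, a choice made after seeing the data. In sperm 0 of 6 tested passed in either direction, as for all hairpins (0%). In CC, 0 of 5 passed, where 2.25% of all hairpins were called higher and 1.88% lower, and in Ang OE 1 of 5 rose and 0 fell, where 24.2% were called higher. None of these counts sets the list apart from the background. The median log2 fold change of the list was -0.29 in sperm, -0.19 in CC and 0.11 in Ang OE, against -0.01, -0.03 and 0.06 for all hairpins. It took either sign with the counting of loci that share reads. With the mir-9 loci counted separately it was 0.09 over 8 in sperm, 0.24 over 7 in CC and 0.73 over 7 in Ang OE. With also only mir-129-1 or only mir-129-2 kept, a pair with fractional counts, it was -0.29 or -0.30 in sperm, -0.25 or 0.02 in CC and -0.46 or -0.15 in Ang OE. No direction is therefore read from the list.

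The miRNA that rose was mir-9, whose loci mir-9-1, mir-9-2 and mir-9-3 had log2 fold changes of 1.52, 1.52 and 1.54 and adjusted p-values of 0.000816, 0.000816 and 0.000759 in edgeR. The mean GC content of its strands is 33.3%, in the tertile whose median in Ang OE was 0.39, and with the GC offset the values were 1.105, 1.105 and 1.13 (adjusted p = 0.0111, 0.0111 and 0.0104, edgeR). Several members were higher in sperm, unlike mir-7a. mir-375, the abundant miRNA of pancreatic islets, reached 5862 ± 831 CPM in CD and 4876 ± 583 CPM in HFD sperm (SD, n = 3), with a log2 fold change of -0.37 (adjusted p = 0.663, edgeR), and stayed between 0.148 and 0.615 CPM in TM4 cells. Other members were also higher in CD sperm than in Ctrl TM4 cells, with means of 255 against 0.494 CPM for mir-184, 25.7 against 0.638 for mir-129-2, 18.0 against 0.890 for mir-9-1, 8.73 against 0.441 for mir-129-1 and 1.11 against 0 for mir-153. As with mir-7a, these levels set a cell line beside a tissue and were not tested.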

How the data were processed

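Total RNA was sequenced as small RNA libraries. The submitters' processing notes name FastQC 0.12.0 for quality control and Trimmomatic 0.40 for trimming. The authors then annotated reads of the stated lengths with SPORTS1.1 against rRNA, tRNA, miRBase and further databases in that order, with a mismatch allowed. Each deposited value is an estimated count for a hairpin, which the authors did not normalize, and a read that matches several hairpins is divided among them. Reads with and without a genome match were added per hairpin, and the 4 hairpins had no reads of the latter kind. Because rRNA and tRNA are matched first, reads that fit these as well as a hairpin do not reach the miRNA counts.

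Counts were rounded and tested with edgeR 4.0.16 in R 4.3.3 (quasi-likelihood test, TMM over miRBase hairpins, Benjamini-Hochberg adjustment over all hairpins tested), for hairpins that reached 10 reads in 3 or more sperm or 2 or more TM4 libraries. All 6 TM4 libraries shared a model. Calls were made at an adjusted p under 0.05. Alternatives were DESeq2 1.42.0, ComBat-seq from sva 3.50.0 with the replicate number standing in for a batch, other library sizes, no filter or at least 100 reads, genome-matched reads, the replicate number as a block, a model of the compared groups alone, each library left out, and, added after seeing the data, an offset per library and quintile of GC content. The study adjusted the cell line data for batches of sample preparation, but the labels name no batch, so whether batches follow the replicate numbers or the TM4 groups is unknown and the latter cannot be told apart from the treatments. The edgeR fits were run on simulated counts as a check of the code, which says nothing about the spread between separate cultures. Sums and intervals were computed in scipy 1.17.1, numpy 2.4.6 and pandas 2.3.3 under Python 3.11.15, and plots drawn with matplotlib 3.10.9.

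The 4 hairpins and the lists were chosen with earlier results of these data known. Hairpins are given by a rule: the 4, mir-7b, the neuroendocrine list, sharers of a seed, and the 3 hairpins with the highest r with each. mir-132 is given outside that rule, after its values were seen. Mature sequences were read from the RefSeq table by miRNA name, and all 4 hairpins and mir-7b matched.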

Additional observations from a re-analysis of the deposited data

How the results depend on the processing

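In TM4 cells the 4 hairpins kept their directions in all 112 values from the alternatives, and the sperm values, all near 0, did not. In sperm, DESeq2 called 8 hairpins where edgeR called 0. The sperm log2 fold changes of mir-7a-1, mir-7a-2 and mir-149 were 0.051, 0.055 and 0.090 with miRBase reads as library size and 0.14, 0.15 and 0.16 with clean reads without rRNA, and mir-149 was at 0.051 with at least 100 reads and 0.064 with the GC offset. Leaving out 1 library gave -0.22 to 0.15 for mir-7a-1, -0.13 to 0.26 for mir-7a-2 and -0.15 to 0.17 for mir-149, and the adjusted p of the 3 stayed at 0.764 or above under the alternatives run, where mir-7a-2 gave no value with at least 100 reads. For CC against Ctrl, 35 hairpins were called with the replicate block and 39 after ComBat-seq against 22 without, and 0 to 26 when 1 library was left out, 0 with either CC library left out, where the lone CC library is assumed to vary like the other groups, and mir-149 was at 0.59 with the GC offset. For Ang OE against Ctrl, the values of mir-7a-1, mir-7a-2, mir-149 and mir-760 were 0.54, 0.83, -1.08 and -1.30 with miRBase reads as library size, and 0.67, 0.96 and -0.95 for the first 3 with clean reads without rRNA. With at least 100 reads mir-7a-1 was at 0.70 and mir-7a-2 at 0.99. With the GC offset the 4 were 0.39, 0.84, -0.39 and -0.61, and 133 hairpins were called. Leaving out 1 library gave 0.70 to 0.84, 1.01 to 1.16, -1.02 to -0.70 and -1.30 to -0.83. The log2 ratio of Ctrl TM4 cells to CD sperm was 3.05 for mir-7a-1 and 1.23 for mir-149 with clean reads without rRNA, and ranged from 1.86 to 3.14 for mir-760 without 1 library. The mir-7a ratio was identical with genome-matched reads alone. The cause of these shifts was not tested. Between CD and HFD libraries of the same replicate number, the deviations from the group had r of -0.35, -0.24 and 0.07. Sperm pairs with different numbers ranged from -0.35 to 0.39. Under CC the r of equal numbers was -0.02, and under Ang OE it was -0.10. With 2 libraries per TM4 group, different numbers give the same value with the opposite sign. These values therefore cannot decide whether the numbers pair the samples, which remains unknown. With the replicate block, 0 hairpins were called in sperm and 222 in Ang OE, where 204 were called without. Depth limits mir-760 in sperm, with 3 to 21 reads per library, and 2 libraries per TM4 group limit every value there.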
